A study of Rattus norvegicus with 12 samples.

Results

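The comparison described here is that of T cells from antibiotic-treated lungs with T cells from control lungs before any response to immunization. It rests on 6 of the 12 libraries of the study, chosen by their labels: 3 from lungs of rats given the antibiotic labelled NEO and 3 from lungs of rats given phosphate-buffered saline (PBS), all taken on day 0. Both groups were wild-type LEW/Crl rats 6 to 8 weeks old that received NEO or PBS through the trachea for 7 days, and day 0 belongs to the immunization with myelin basic protein (MBP) by the same route. The cells were MBP-reactive T cells carrying a fluorescent label, which were sorted from digested, Percoll-enriched lung tissue. Numbered lungs are the replicates, and the labels do not say whether each came from a separate animal, so p-values here speak only of the variation among these libraries, which may be technical. The other 6 libraries, from NEO and PBS lungs on day 1, shared no library with this comparison. They give NEO against PBS after immunization, which is not a repeat of the contrast on day 0. Fits of all 12 libraries draw the filters on level, the scaling and the spread from both days.

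MBP is a protein of the myelin sheath, and T cells that recognise it can cause an inflammatory disease of the central nervous system in Lewis rats. Before they reach the nervous system such cells pass through other organs, among them the lung, where local conditions including airway bacteria can act on them. The comparison on day 0 asks what a week of local antibiotic had done to these resident cells before antigen was given. The count tables name each gene by an Ensembl identifier, and for 0 of these could a symbol be found in the gene table at hand. Expression of named T cell genes and the check of the sorted cells against T cell markers are therefore not analysed here, and results are given for groups of genes and for 4 identifiers.

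The 6 libraries held between 9694765 and 16636349 counts. The total was 11477420 ± 1988404 (SD, n = 3) in NEO and 14395521 ± 2037351 (SD, n = 3) in PBS. An exact permutation test gave p = 0.2 (two-sided, adjusted p = 0.45 over 3 library measures). The smallest p possible with 3 against 3 libraries is 0.1, so this test could not reach 0.05 and decides nothing about the totals. The number of genes with a count was 16289 ± 552 per NEO library and 17320 ± 1154 per PBS library (SD, n = 3). The same limit holds for its test (exact permutation p = 0.3, two-sided, adjusted p = 0.45). No pair agreed within sampling noise. The closest pair crossed the groups, NEO replicate 2 and PBS replicate 2, with a chi-square per degree of freedom of 5.39, where the PBS replicates differed among themselves by 10.5 to 11.8.

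NEO replicate 1 stood apart from all other day 0 libraries. Its log2 expression correlated with them at 0.922 to 0.934, whereas NEO replicates 2 and 3 correlated with each other at 0.986 and with the PBS libraries at 0.978 to 0.988. CPM here are counts per 1e+06 counts of the library, with the library size scaled by TMM normalization. Of 8229 genes whose mean reached 10 CPM, 217 exceeded 2 times the highest of the other 5 libraries in NEO replicate 1 and 354 were under 1/2 of the lowest. In each of the other libraries between 0 and 5 genes did so in either direction. The within-group SD of a gene's log2 CPM had a median of 0.296 in NEO, 0.154 in NEO replicates 2 and 3 alone and 0.131 in PBS. The genes that set the library apart were compared with the day change of the PBS lungs, which uses none of the NEO libraries. Of the 272 genes at least 2-fold above both NEO replicates 2 and 3, 60.3% were higher on day 1 than on day 0 in PBS, against 46.2% of all genes of that level and 45.1% of the 399 genes at least 2-fold below both. Over all 8229 genes, which are not independent replicates, the deviation of NEO replicate 1 and the PBS day change were nearly unrelated (r = 0.0811, Spearman's rho = -0.0172).

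**Figure D1:**
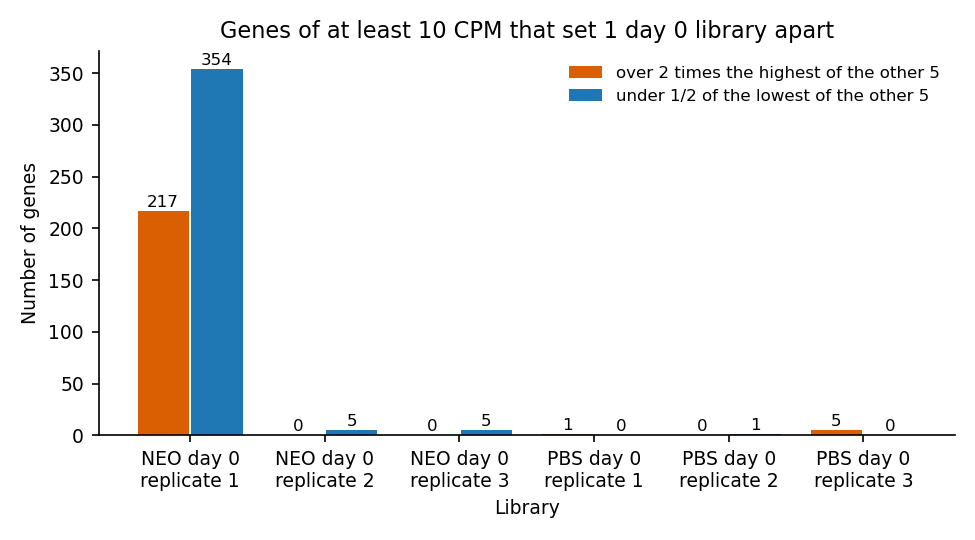
Number of genes, among those whose mean reached 10 CPM (y axis), whose level in 1 day 0 library (x axis) was over 2 times the highest, or under 1/2 of the lowest, of the other 5 libraries. NEO replicate 1 has 217 and 354 such genes, and the other 5 libraries have 5 or fewer.

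Between NEO and PBS on day 0 the quasi-likelihood test of edgeR called 0 of 12449 genes after Benjamini-Hochberg adjustment (0%, smallest adjusted p = 0.292). Before adjustment, p was under 0.05 for 554 genes higher in NEO (4.45% of the genes tested) and 278 lower in NEO (2.23%). DESeq2 on the same counts called 51 genes higher in NEO (0.41%) and 2 lower (0.0161%), and limma voom called 0. The number of lower genes by DESeq2 depended on the libraries in the fit. With the 6 day 0 libraries alone it called 49 genes higher (0.422% of 11603) and 50 lower (0.431%), and with NEO replicate 1 also left out 80 higher (0.675% of 11860) and 127 lower (1.07%). DESeq2 gave no adjusted p for 1235 genes with all 12 libraries, for 255 with the 6 and for 0 in the last fit. Such genes could not be called but are counted in the shares. In 3 of 3 NEO libraries 866 genes (6.96%) exceeded every PBS library and 918 (7.37%) were below every PBS library. With 3 against 3 libraries the smallest exact permutation p is 0.1 for both directions together. Many genes are thus apart without any difference between the groups, and these counts alone do not show one. No gene with at least 10 counts in each library of one group was at 0 in all libraries of the other. Without NEO replicate 1 edgeR again called 0 genes, with 301 genes higher and 204 lower at an unadjusted p under 0.05. Of the 554 and 278 genes, 193 and 104 were then still under 0.05 in the same direction, and the sign of the difference changed for 3507 of 12449 genes.

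How large a difference could have been missed depended on the level of the gene. In the lowest of 4 bins by level, with a median of 1.31 CPM, 14.7% of the genes had a 95% interval of the log2 difference inside the 2-fold limits. This was so for 76.0%, 92.5% and 93.2% of the genes in the bins with medians of 12.8, 43.9 and 144 CPM. Within 1.5-fold lay the intervals of 0.482%, 35.6%, 71.4% and 77.0%. Without NEO replicate 1 the 3 upper bins reached 87.2%, 96.9% and 98.4% within 2-fold. For most genes above about 40 CPM a 2-fold difference between the group means was thus outside the interval, whereas for most genes of the lowest bin the interval reached beyond 2-fold.

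**Figure D2:**
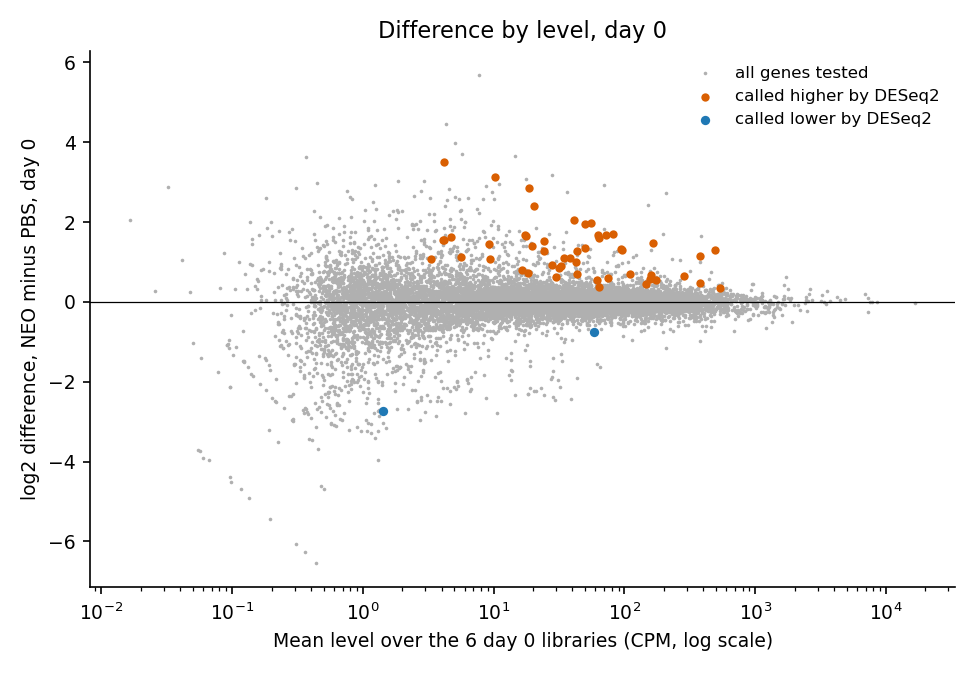
Difference between NEO and PBS on day 0 (y axis, log2) against the mean level of each gene over the 6 day 0 libraries (x axis, CPM, log scale), 1 point for each of 12449 genes. The 51 genes called higher by DESeq2 with all 12 libraries in the fit (orange) lie between 3.33 and 533 CPM, and 2 genes were called lower in that fit (blue).

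The identifiers of smallest p, 2 higher and 2 lower in NEO, were examined in every library, among genes that averaged 50 or more raw counts in whichever group was higher. Their day 0 values chose them and are a description. ENSRNOG00000006314 had 146, 118 and 113 CPM in NEO replicates 1 to 3, and 31.7, 56.4 and 27.4 CPM in PBS. The groups did not overlap, and PBS replicate 2 was the highest of the controls. Its log2 difference was 1.71 ± 0.26 (SE, 95% interval 1.13 to 2.29), a 3.27-fold higher mean in NEO, with an edgeR adjusted p of 0.292 and a DESeq2 adjusted p of 1.64e-06. Without NEO replicate 1 the difference was 1.58 ± 0.28 (SE, edgeR adjusted p = 0.25). On day 1 the same identifier had 88.1, 138 and 146 CPM in NEO and 61.8, 54.1 and 58.9 CPM in PBS, again without overlap, a log2 difference of 1.09 ± 0.26 (SE, 95% interval 0.52 to 1.66, edgeR adjusted p = 0.995).

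ENSRNOG00000030467 was of low level and averaged 50 counts or more in the NEO libraries but not in PBS, with 10.2, 5 and 6.10 CPM in NEO (103, 67 and 64 counts) and 2.36, 2.45 and 2.10 CPM in PBS (32, 31 and 35 counts). All NEO libraries lay above all PBS libraries, with NEO replicate 1 the highest. The log2 difference was 1.62 ± 0.25 (SE, 95% interval 1.07 to 2.16, edgeR adjusted p = 0.292, DESeq2 adjusted p = 0.000116) and 1.26 ± 0.17 (SE) without NEO replicate 1 (edgeR adjusted p = 0.0636). On day 1 it had 14.1, 16.3 and 16.6 CPM in NEO and 10.1, 8.68 and 9.63 CPM in PBS. The groups were again apart, by a log2 difference of 0.72 ± 0.23 (SE, 95% interval 0.21 to 1.24, edgeR adjusted p = 0.995).

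Both identifiers that were lower in NEO on day 0 had no such separation on day 1. ENSRNOG00000004494 had 39.8, 46.2 and 44.5 CPM in NEO and 78.4, 59.8 and 80.1 CPM in PBS on day 0. The groups did not overlap, and the log2 difference was -0.74 ± 0.18 (SE, 95% interval -1.14 to -0.35, edgeR adjusted p = 0.477, DESeq2 adjusted p = 0.0477). On day 1 its level was 113 CPM ± 22.2 in NEO and 107 CPM ± 19.9 in PBS (SD, n = 3), a log2 difference of 0.09 with a 95% interval of -0.30 to 0.48. ENSRNOG00000009370 had 16.4, 18.1 and 15 CPM in NEO and 23.0, 27.2 and 21.3 CPM in PBS on day 0, a log2 difference of -0.53 ± 0.13 (SE, 95% interval -0.82 to -0.24, edgeR adjusted p = 0.533, DESeq2 adjusted p = 0.0995). On day 1 it was at 18.4 CPM ± 1.48 in NEO and 18.2 CPM ± 0.894 in PBS (SD, n = 3), a log2 difference of 0.02 with a 95% interval of -0.27 to 0.31. The difference between the days did not pass the threshold for any of the 4 identifiers (edgeR interaction test, adjusted p = 0.863 for each).

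**Figure D3:**
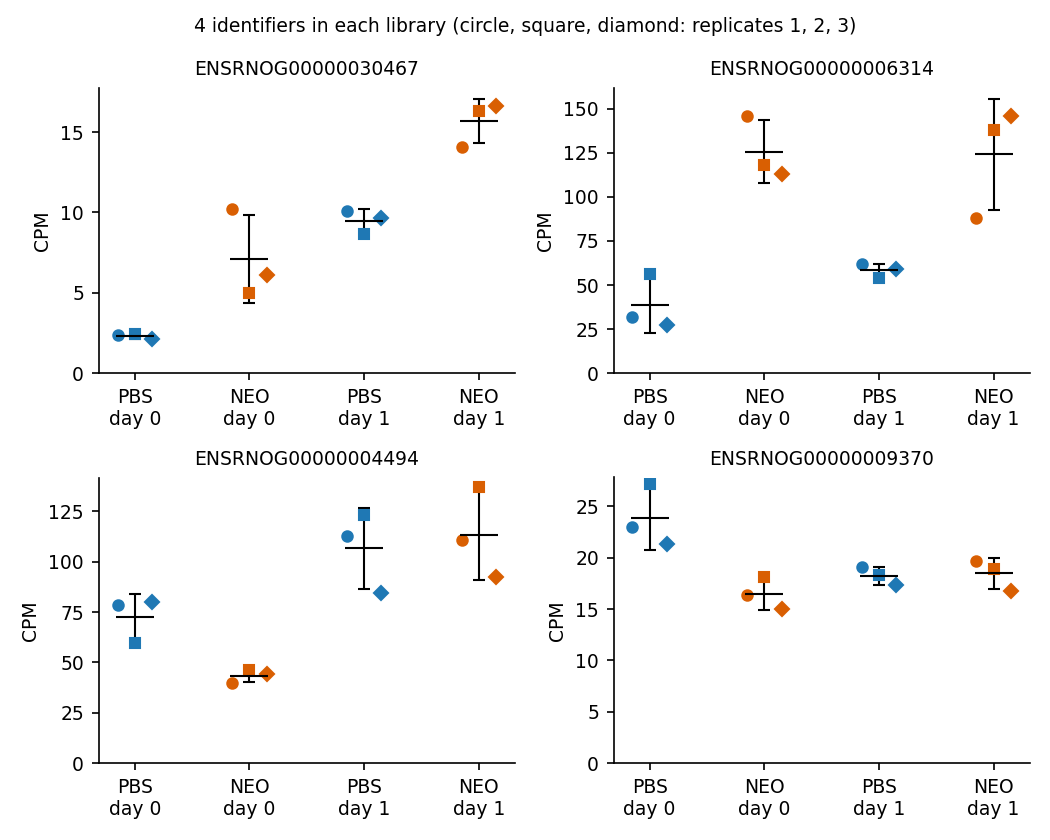
Level of 4 identifiers (y axes, CPM after TMM scaling) in each library of the 4 groups (x axes), with the mean and SD of 3 libraries as bars. The upper pair, chosen as higher in NEO on day 0, was also without overlap on day 1, and the lower pair, chosen as lower on day 0, overlapped on day 1.

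The 51 genes that DESeq2 called higher in NEO with all 12 libraries in the fit spanned low to high expression, from 3.33 to 533 CPM with a median of 42.3 CPM, where all genes tested had a median of 25.5 CPM. Their log2 differences ran from 0.34 to 3.50 with a median of 1.28 by edgeR. These values chose the genes and are given as a description. Together the group took 0.695%, 0.505% and 0.519% of all counts in NEO replicates 1 to 3 and 0.278%, 0.356% and 0.275% in PBS. The median log2 level of its genes, relative to their PBS mean, was 1.40, 0.93 and 1.08 in NEO and -0.14, 0.26 and -0.16 in PBS. The difference was thus present in each NEO library, largest in replicate 1, and smallest against PBS replicate 2. In 50 of the 51 genes the groups did not overlap, which the choice of the genes favours.

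Within each arm, too, the genes of this group tended to share the order of the libraries. PBS replicate 2 was the highest of the 3 PBS libraries for 44 of the 51 genes (86.3%), against 32.9% of all genes tested. NEO replicate 1 was the highest NEO library for 38 of 51 (74.5%), against 41.6% of all genes. For 12 of the 51 it reached at least 1.5 times the mean of the other NEO libraries, as it did for 2299 of all 12449 genes. When NEO replicate 1 was left out, 50 of the 51 genes were still at an unadjusted edgeR p under 0.05 in the same direction, and their median log2 difference was 1.02. These values share the libraries that chose the genes and are a description, beside 462 of all 12449 genes that met the same condition. DESeq2 without that library called 42 genes higher (0.33% of 12745, of which 501 had no adjusted p) and 1 lower. Of the higher genes 28 were in both lists, 66.7% of the 42 and 54.9% of the 51. NEO replicate 1 did not follow for 10 of the 42, in which it was below the PBS mean. For 9 of the 42 it was below all PBS libraries, as it was for 5145 of all 12449 genes.

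**Figure D4:**
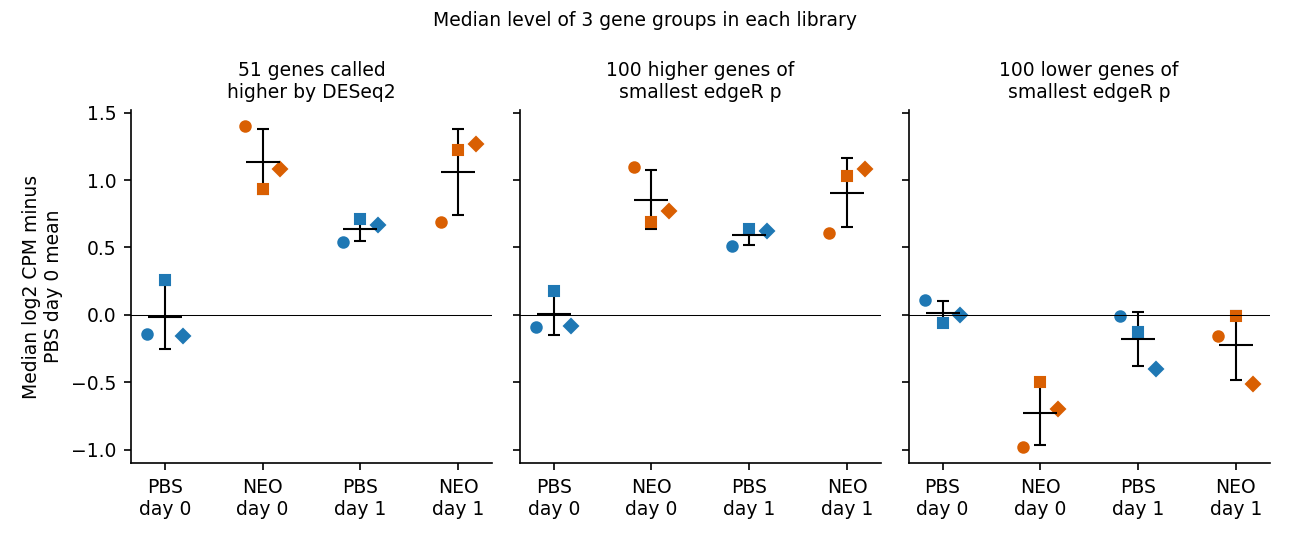
Median log2 CPM of 3 gene groups relative to the PBS day 0 mean (y axis) in each of the 12 libraries, by group (x axis), with the mean and SD of 3 libraries as bars. The groups were chosen by the day 0 difference, so the day 0 positions are a description. The day 1 libraries entered the choice through the filters on level, the scaling and the spread. In them the 51 genes lie at 0.69 to 1.27 in NEO and 0.54 to 0.71 in PBS, which overlap.

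On day 1 the same 51 genes were again mostly higher in NEO. The difference between NEO and PBS on day 1 was not used to choose them, but the day 1 libraries entered the choice. They did so through the filters on level, the scaling and the estimate of the spread. The genes tend to share the order of the libraries and are not independent replicates. Counts of genes here and below therefore describe 3 NEO and 3 PBS libraries and are not separate observations of the contrast. The log2 difference on day 1 was above 0 for 49 of the 51 (96.1%), against 52.6% of all genes tested, with a median of 0.57 and quartiles of 0.26 and 0.81. An unadjusted edgeR p under 0.05 with a higher level in NEO was found for 28 of the 51 (54.9%), against 2.76% of all genes tested and 3.45% of those with at least 10 CPM, and 0 of the 51 were lower at that p. In 24 of the 51 (47.1%) all NEO libraries exceeded all PBS libraries on day 1, against 6.72% of all genes, and in 0 of the 51 the reverse was so, against 4.13%. The group took 0.483%, 0.685% and 0.651% of all counts in NEO replicates 1 to 3 of day 1 and 0.443%, 0.500% and 0.443% in PBS. By this share NEO replicate 1 of day 1 lay within the range of the PBS libraries. NEO replicate 1 of day 1, the shallowest library of the series with 7776335 counts, was the lowest NEO library for 44 of the 51 genes (86.3%, against 31.7% of all genes).

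In other fits most of the 51 genes kept a higher level in NEO on day 1, but the number at an unadjusted p under 0.05 varied from fit to fit. In a fit of the 6 day 1 libraries alone, 30 of the 51 were at an unadjusted edgeR p under 0.05 and higher (58.8%, against 3.11% of all genes). Libraries with the same lung number deviated together on day 1. When the number was entered as a block in that fit, edgeR called 50 genes higher in NEO (0.414% of 12075) and 28 lower (0.232%) after adjustment, and 15 genes were in both lists, 30.0% of the 50 and 29.4% of the 51. Before adjustment, 39 of the 51 were at a p under 0.05 and higher (76.5%, against 8.72% of all genes) and 1 was lower (1.96%, against 8.51%). The number as a block in all 12 libraries gave 24 of the 51 at an unadjusted p under 0.05 and higher (47.1%, against 3.79% of all genes) and 0 calls after adjustment. Without both day 1 libraries numbered 3, a choice made after seeing the data, 46 of the 51 were higher (90.2%, against 55.6% of all genes). At an unadjusted edgeR p under 0.05, 11 were higher (21.6%, against 4.33% of all genes) and 1 was lower (1.96%, against 2.77%). Of the 42 genes that DESeq2 called without NEO replicate 1 of day 0, 37 were higher on day 1 in the fit of all 12 libraries (88.1%, against 52.6% of all genes). Of these 42, 20 were higher at an unadjusted edgeR p under 0.05 (47.6%, against 2.76% of all genes).

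Both days were also kept fully apart, with genes chosen in a fit of the 6 day 0 libraries alone and read in a fit of the 6 day 1 libraries alone, an alternative chosen after seeing the data. Of the 49 genes that DESeq2 called higher in the day 0 libraries alone, 39 belong to the 51. Of the 49, 48 were higher in NEO on day 1 (98%, against 51.6% of all genes) with a median log2 difference of 0.61. At an unadjusted edgeR p under 0.05, 30 were higher (61.2%, against 3.11% of all genes). Of the 50 genes called lower in the same fit, 40 were higher in NEO on day 1 (80%, against 51.6% of all genes), against their direction on day 0. Their median log2 difference was 0.37, with 0 at an unadjusted edgeR p under 0.05 in either direction.

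Higher and lower genes were then compared in groups of equal size, taken as the 100 genes of smallest edgeR p in each direction on day 0, a number chosen after the values were seen. The 100 higher genes, which include 50 of the 51, had a median log2 difference of 0.92 on day 0 and of 0.33 on day 1. On day 1, 83 of them were above 0, against 52.6% of all genes. At an unadjusted edgeR p under 0.05, 38 were higher, against 2.76% of all genes, and 1 was lower, against 1.39%. The 100 lower genes had a lower level, with a median of 11.9 CPM against 43.3 CPM, and a median log2 difference of -0.69 on day 0 and -0.04 on day 1. On day 1, 43 of them were above 0, and 2 were at an unadjusted p under 0.05 and lower, against 1.39% of all genes. The precision at their level is poorer, as given above. The 100 lower genes took 0.290%, 0.379% and 0.332% of counts in NEO and 0.496%, 0.456% and 0.474% in PBS on day 0, and 0.378% to 0.448% in NEO and 0.394% to 0.432% in PBS on day 1. Chosen without NEO replicate 1, the 100 higher genes had 80 above 0 on day 1 (52.6% of all genes) and 37 higher at an unadjusted p under 0.05 (2.76% of all genes). The 100 lower genes so chosen had 45 above 0 and 2 lower at that p (1.39% of all genes). On day 0 NEO replicate 1 was below the PBS mean for 24 of the higher genes so chosen. It was above the PBS mean for 32 of the lower genes so chosen. With both days fitted apart, 81 of the 100 higher genes and 79 of the 99 lower genes tested on both days were above 0 on day 1, against 51.6% of all genes. Their median log2 differences on day 1 were 0.34 and 0.35, so the sign on day 1 did not follow that on day 0. At an unadjusted edgeR p under 0.05, 42 of the 100 were higher, against 3.11% of all genes, and 0 of the 99 passed in either direction.

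**Figure D5:**
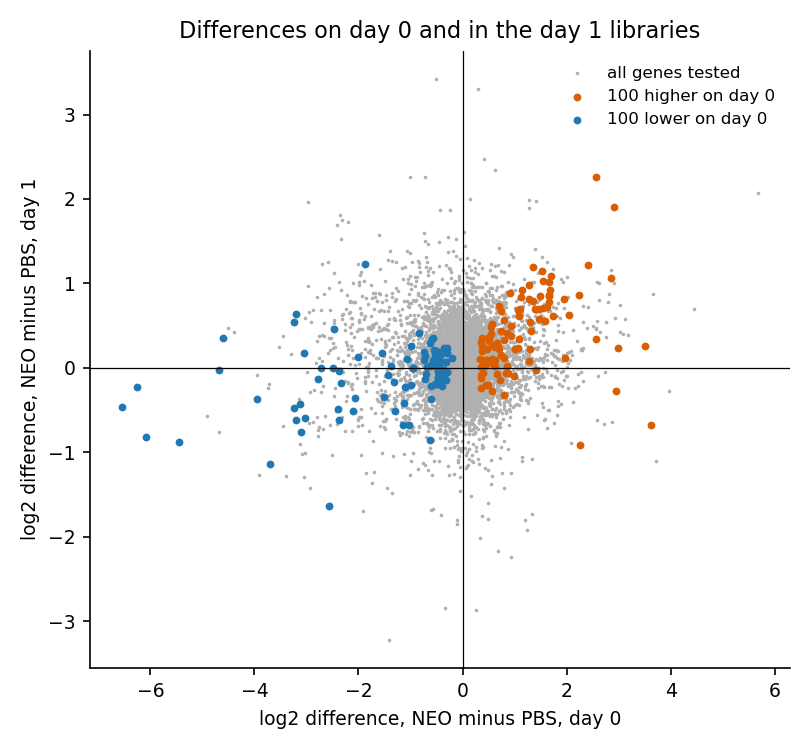
Difference between NEO and PBS on day 1 (y axis, log2) against that on day 0 (x axis, log2), 1 point for each gene, from libraries that the days do not share but with 1 spread estimated over all 12. Of the 100 higher genes of smallest day 0 p (orange) 83 lie above 0 on day 1, and of the 100 lower genes (blue) 43 do. With genes chosen in the day 0 libraries alone and read in the day 1 libraries alone, not drawn here, 81 of 100 and 79 of 99 were above 0.

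Over all genes the contrasts of the days were weakly related. Across the 8229 genes of 10 CPM or more, which are not independent replicates and share the libraries, the log2 differences of day 0 and day 1 correlated at r = 0.158 (Spearman's rho = 0.0593), and at r = -0.0064 (rho = -0.158) with NEO replicate 1 left out of day 0. The groups were apart in the same direction on both days for 87 of the 866 genes higher in NEO on day 0 (10%, against 6.72% of all genes) and for 25 of the 918 lower (2.72%, against 4.13%). They were apart in the opposite direction on day 1 for 34 of the 866 (3.93%, against 4.13%) and 36 of the 918 (3.92%, against 6.72%).

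With NEO replicate 1 left out and the spread taken from the remaining 5 day 0 libraries alone, edgeR called 10 genes higher (0.0843% of 11860) and 14 lower (0.118%). NEO replicate 1 did not follow NEO replicates 2 and 3 for 5 of the 10, in which it was below the PBS mean, and for 2 of the 14, in which it was above all PBS libraries. The 10 higher genes, 5 of which belong to the 51, took 0.0933% of counts in NEO replicate 1, 0.130% and 0.144% in NEO replicates 2 and 3, and 0.0613% to 0.0773% in PBS. On day 1 all 10 were higher in NEO, against 52.6% of all genes, and 2 of them at an unadjusted edgeR p under 0.05, against 2.76%. The 14 lower genes took 0.0298% of counts in NEO replicate 1, 0.0140% and 0.0177% in NEO replicates 2 and 3, and 0.0446% to 0.0593% in PBS. Their median log2 level relative to the PBS mean was -2.50, -1.98 and -1.55 in NEO replicates 1 to 3. NEO replicate 1 was the lowest NEO library for 9 of the 14, against 5235 of all 12449 genes. With the day 1 libraries kept in the fit, 10 of the 10 and 1 of the 14 were at an unadjusted edgeR p under 0.05, beside 462 of all genes. On day 1 the share of these 14 genes followed the lung number, with 0.125% and 0.244% in NEO replicates 1 and 2, 0.0971% and 0.156% in PBS replicates 1 and 2, and 0.00775% and 0.0103% in the NEO and PBS libraries numbered 3. In the fit of all 12 libraries 13 of the 14 were higher in NEO on day 1 (92.9%, against 52.6% of all genes), against their direction on day 0. At an unadjusted edgeR p under 0.05 there were 0 of them. What the day 1 libraries numbered 3 share was not tested.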

How the data were processed

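RNA was sequenced from sorted T cells of 12 lungs, 3 in each of 4 groups taken from the sample titles. The deposited tables hold raw read counts per gene, 1 table per library, and the submitters' processing notes name featureCounts (1.5.0-p1), STAR (2.5.2a), bcl2fastq (2.17.1.14) and the genome build rn6. Not given in the sources used here are the annotation release, strand setting and read filters, so overlapping, antisense and near-identical genes can share reads. A gene at 0 counts may have had up to 3, which is 0.18 to 0.386 CPM depending on the library, for counting error only.

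The analysis used edgeR 4.0.16 under R 4.3.3 (filterByExpr, TMM, glmQLFit and glmQLFTest with 1 mean for each group over all 12 libraries), with calls at an adjusted p under 0.05. Standard errors are the log2 difference divided by the square root of F. CPM follows TMM scaling, and log2 CPM used a prior count of 2. Alternatives were limma 3.58.1 (voom with sample weights), DESeq2 1.42.0, other scalings and filters, the day 0 libraries alone, a block by lung number and each day 0 library left out. The scripts were run on simulated counts that held no outlying library and no deviations shared by lung number. That run therefore does not bear on the unlike numbers of calls by edgeR and DESeq2 here.

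The groups and lists were chosen with earlier results of these data known. The 39 gene lists and the panel of 55 T cell genes could not be used without symbols. The rule for named genes was the T cell panel, the genes of smallest p with at least 50 raw counts and members of the lists. Without symbols it was applied to identifiers and limited to 2 in each direction. On day 0 same-number libraries correlated in their deviations at -0.0658, 0.0902 and 0.0982, and the numbers were not taken as pairs in the main fit. Deviations were taken from group means, and that of NEO includes NEO replicate 1, which stood apart. The check could therefore hardly detect pairing on day 0. The closest day 0 pair, with a chi-square per degree of freedom of 5.39, shared the number 2. Whether the day 0 libraries are paired cannot be told from these values. On day 1 the correlations were 0.494, 0.628 and 0.746, and pairing there comes from the data, not from the labels.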

Additional observations from a re-analysis of the deposited data

How the results depend on the processing

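The count of 0 genes by edgeR at an adjusted p under 0.05 stayed at 0 with both other scalings, with a filter of 50 counts in 3 libraries, with limma voom, with the 6 day 0 libraries alone and with a block by lung number. It was 53 by DESeq2 (971 at an unadjusted p under 0.05) and 13 without a low-count filter. With 1 day 0 library left out it ran from 0 to 3, the 3 being without PBS day 0 replicate 2. It was 24 in the day 0 libraries without NEO replicate 1. In combinations chosen after seeing the data, without NEO replicate 1, it was 43 by DESeq2, 3 by limma voom and 45 with no low-count filter. By DESeq2 in the day 0 libraries alone, also added afterwards, it was 99, and 207 without NEO replicate 1. The 832 genes at an unadjusted p under 0.05 became 456 with the replicate block in the 6 day 0 libraries and 1128 with the block within days in all 12. Of 3 NEO libraries, 1 correlated best with its own number on day 0, where NEO replicate 1 limits the check, and 3 did on day 1. With 1 library left out they ran from 403 (without PBS day 0 replicate 1) to 1648 (without NEO day 0 replicate 3), through 485 when PBS replicate 3 was absent, 505 when NEO replicate 1 was and 1461 when NEO replicate 2 was. The share of genes with an interval within 2-fold was 69.1% and fell to 45.8% with no low-count filter, which adds genes of few counts. The cause of the other changes was not tested.

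The 4 identifiers kept their direction in all 16 alternatives, from 1.51 to 2.09 for ENSRNOG00000006314 (called in 3), 1.22 to 1.81 for ENSRNOG00000030467 (called in 2), -0.87 to -0.65 for ENSRNOG00000004494 (called in 1) and -0.61 to -0.43 for ENSRNOG00000009370 (called in 0). Medians of the gene lists were not run, since no list could be matched.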
